A study of Mus musculus with 14 samples.

Results

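The genes described here encode proteins of the mitochondrial ribosome, and were chosen by name: every gene whose symbol is Mrpl (large subunit) or Mrps (small subunit) followed by a number, with or without 1 letter after it, and which stands in both expression tables of the study. This gave 75 genes, 46 Mrpl and 29 Mrps, out of 12655 genes found in both tables by symbol (13406 genes in the first table and 14563 in the other). The naming rule itself used no measured value, but the members were chosen with earlier results of these data known.

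The mitochondrial ribosome makes the few proteins that mitochondrial DNA encodes, all of them subunits of the respiratory chain and of ATP synthase. Its ribosomal RNAs are transcribed in the mitochondrion, whereas its proteins are encoded in the nucleus, made in the cytosol and imported, so that building it draws on both genomes. Some of its proteins descend from bacterial ribosomal proteins, and others have no bacterial counterpart. Acute myeloid leukaemia cells are known for relying on mitochondrial translation, and tetracyclines, doxycycline among them, are known to bind mitochondrial as well as bacterial ribosomes.

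The study sequenced RNA of acute myeloid leukaemia cells taken from C57/BL6 mice, in 14 libraries. All groups share the same background: foetal liver cells carrying a Tet-Off MLL-AF9-dsRED vector and a vector with NRASG12D and the Tet-Off activator were put into irradiated mice, and leukaemia cells were taken from the spleens of mice that fell ill. In the first table, 4 libraries were from untreated cells and 4 from cells cultured for 4 days with doxycycline, which turns MLL-AF9 off. In the other table, 3 libraries were from cells that received a control-GFP retrovirus and 3 from cells that received an Id2-GFP one, sorted for GFP 2 days later; Id2 is an inhibitor of DNA binding by helix-loop-helix factors. The labels pair each doxycycline library with an untreated one, and each Id2-GFP library with a control-GFP one by number. They do not say whether replicates came from separate mice, so p-values measure the spread between these libraries, which may be technical in part. No library had doxycycline without the MLL-AF9 switch, so an effect of the drug on the mitochondrial ribosome and an effect of losing MLL-AF9 cannot be told apart here.

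Library depth on the genes tabled was 17922644 to 25959766 reads with or without doxycycline and 14051150 to 14948487 reads after transduction, and single members had 85 to 2319 reads per library in the first and 98 to 1952 in the second. All 8 myeloid markers (Mpo, Itgam, Csf1r, Cd14, Cd33, Elane, Spi1 and Cebpa) were in both tables, against 1 of 5 B cell markers, 1 of 5 T cell markers, 1 of 3 NK cell markers and 1 of 6 stromal and endothelial markers in each. One library stood apart: control-GFP replicate 3 had all 75 members above the mean of the control-GFP group, and its results are given below with and without it.

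After 4 days of doxycycline, transcripts of most mitochondrial ribosomal proteins were lower. Of the 75 members, 49 fell, 2 rose (Mrpl14 and Mrpl4) and 24 did not pass an adjusted p under 0.05 in limma. Over all 13406 genes, 33.8% fell and 31.3% rose by the same rule (65.1% in either direction), whereas falls made up 65.3% of the members. The falls were modest: the median log2 fold change of the members was −0.26, against −0.03 for all genes, and 4 of the members fell by at least 1.5-fold. The differences of single members ran from −0.78 (Mrps28) to 0.28 (Mrpl14) on the log2 scale, and 68 of the 75 lay below 0, against 52.0% of all genes.

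The members' summed reads moved the same way in every pair. They took 0.285% to 0.302% of the reads in the untreated libraries and 0.197% to 0.218% in the doxycycline libraries, with means of 0.293% ± 0.008 (SD, n = 4) and 0.208% ± 0.009 (SD, n = 4). The groups did not overlap. These shares are of plain read totals, a scale on which the median of all genes was −0.27 and that of the members −0.50. On the authors' scale the median member was lower by 0.24, 0.18, 0.27 and 0.30 (log2) in pairs 1 to 4. There the median of all genes differed by at most 0.04 in size in any pair. In all, 53 members were lower in each of the 4 pairs, against 38.9% of all genes, 5 were higher in each, against 35.8%, and 47 had all 4 doxycycline values below all 4 untreated values, against 31.1% of all genes.

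**Figure D1:**
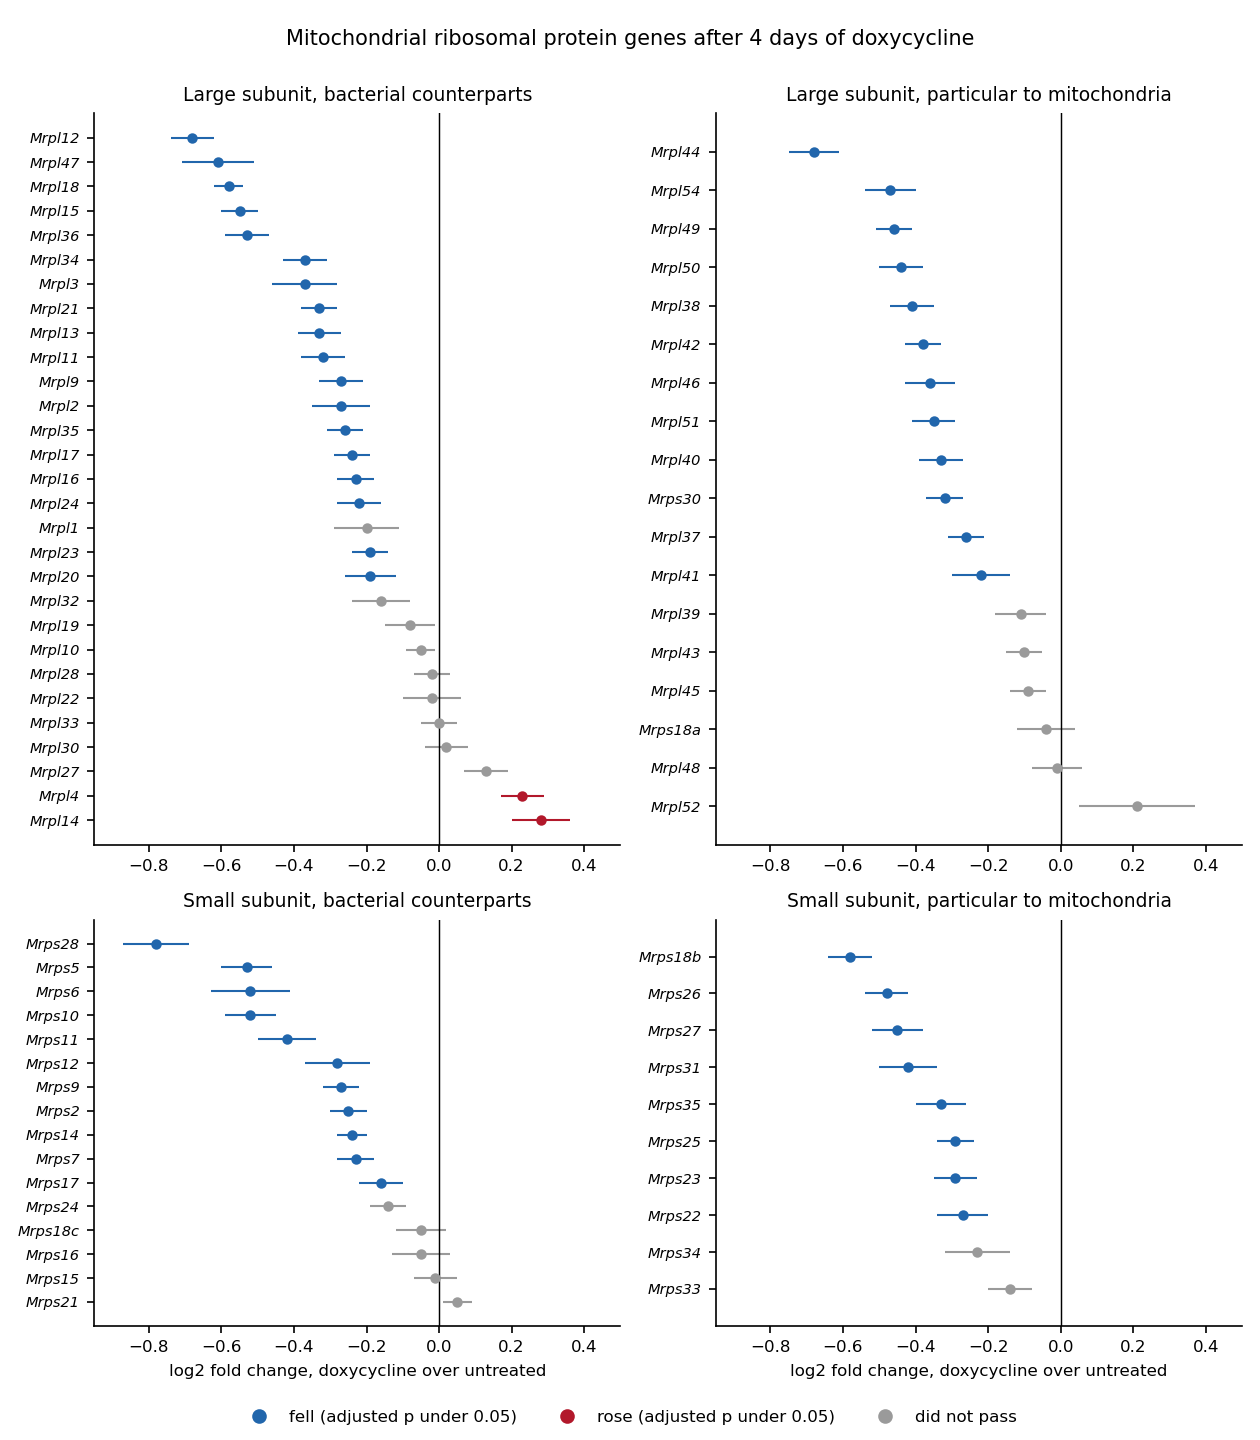
Log2 fold change (doxycycline over untreated, horizontal axis) of the 73 members with an assigned subunit, in 4 panels by subunit and by presence of a bacterial counterpart; bars are standard errors from limma, n = 4 per group. Falls spread over all 4 panels, the largest at −0.78 for Mrps28, and the 2 genes that rose, Mrpl4 and Mrpl14, are in the large subunit panel with bacterial counterparts (with plain library totals neither rose, at −0.01 and 0.04).

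Falls were found in both subunits and in both evolutionary classes. By the same rule 33.8% of all genes fell and 31.3% rose, and falls made up 65.3% of the members. Of 29 large subunit proteins with bacterial counterparts, 18 fell and 2 rose (median −0.23), and of 18 large subunit proteins particular to mitochondria, 12 fell and none rose (median −0.33). Of 16 small subunit proteins with bacterial counterparts, 11 fell (median −0.24), and of 10 particular to mitochondria, 8 fell (median −0.31). Mrps30 and Mrps18a are counted in the large subunit, where their proteins sit despite their symbols. Mrpl55 and Mrps36 were put in no class. The product of Mrps36 is now known as a part of the α-ketoglutarate dehydrogenase complex. Mrpl55 has a large subunit symbol but was in none of the class lists, and it did not pass (−0.12, adjusted p = 0.177, limma).

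Among large subunit proteins with bacterial counterparts, Mrpl12 had the largest fall. Its protein forms the flexible stalk that recruits translation factors, and it is also known to bind the mitochondrial RNA polymerase. Mrpl12 (chromosome 11, 120484613 to 120489065, plus strand, GENCODE M21 on GRCm38) had 94.8, 79.5, 94.7 and 89.2 CPM (reads scaled to a common library size) in untreated replicates 1 to 4, and 55.1, 57.8, 57.9 and 52.9 CPM in the doxycycline replicates. All 4 doxycycline libraries lay below all untreated ones, and the log2 fold change was −0.68 ± 0.06 (SE; adjusted p = 1.3e-05, limma). The neighbouring stalk proteins differed among themselves. Mrpl54 changed by −0.47 ± 0.07 and Mrpl11 by −0.32 ± 0.06, and both fell, while Mrpl10, the protein that anchors Mrpl12 to the ribosome, went from 51.8 ± 0.439 to 49.9 ± 1.25 CPM (SD, n = 4) and did not pass (adjusted p = 0.247). The log2 ratio of Mrpl12 to Mrpl10 was 0.79 ± 0.12 (SD) untreated and 0.16 ± 0.07 in doxycycline, a difference of −0.62. An exact two-sided permutation test gave p = 0.0286, the smallest that 4 against 4 allows, and 0.0762 adjusted over 8 such ratios, which were chosen after the values were seen.

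Mrpl18, whose bacterial relative binds 5S rRNA in the central protuberance, had 85.7, 79.8, 80.5 and 83.4 CPM untreated and 57.1, 52.4, 55.7 and 54.8 CPM in doxycycline (chromosome 17, 12911349 to 12916345, minus strand). Every doxycycline value lay below every untreated one, at a log2 fold change of −0.58 ± 0.04 (adjusted p = 3.5e-06). Mrpl47, at the exit of the peptide tunnel, fell from 16.5, 15.0, 16.4 and 15.9 CPM to 12.1, 11.4, 8.85 and 9.92 CPM (−0.61 ± 0.10, adjusted p = 0.00055). Here too the groups did not overlap. Mrpl15, a core protein of the large subunit, fell from 50.6 ± 1.31 to 34.6 ± 2.25 CPM (−0.55 ± 0.05, SE), and Mrpl36, one of the smallest proteins of the large subunit, fell from 35.6 ± 0.554 to 24.7 ± 1.82 CPM (−0.53 ± 0.06).

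The 2 genes that rose are also large subunit proteins with bacterial counterparts. Mrpl14, at the interface between the subunits, had 20.5, 20.9, 20.1 and 19.5 CPM untreated and 23.6, 29.0, 22.9 and 23.4 CPM in doxycycline (0.28 ± 0.08, adjusted p = 0.0114). Mrpl4, which lines the peptide tunnel, had 46.9, 42.1, 48.1 and 45.4 CPM untreated and 52.2, 57.0, 52.8 and 52.2 CPM in doxycycline (0.23 ± 0.06, adjusted p = 0.00451). In both genes the groups did not overlap and replicate 2 was the highest doxycycline library; with plain library totals in place of the authors' scaling neither rose, at 0.04 (adjusted p = 0.70) and −0.01 (adjusted p = 0.918). Mrpl33, among the members with the most reads, had 95.4 ± 5.2 CPM untreated and 95.7 ± 4.12 CPM in doxycycline (SD, n = 4), with a difference of 0.00 ± 0.05 (adjusted p = 0.942). Its groups overlapped throughout.

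**Figure D2:**
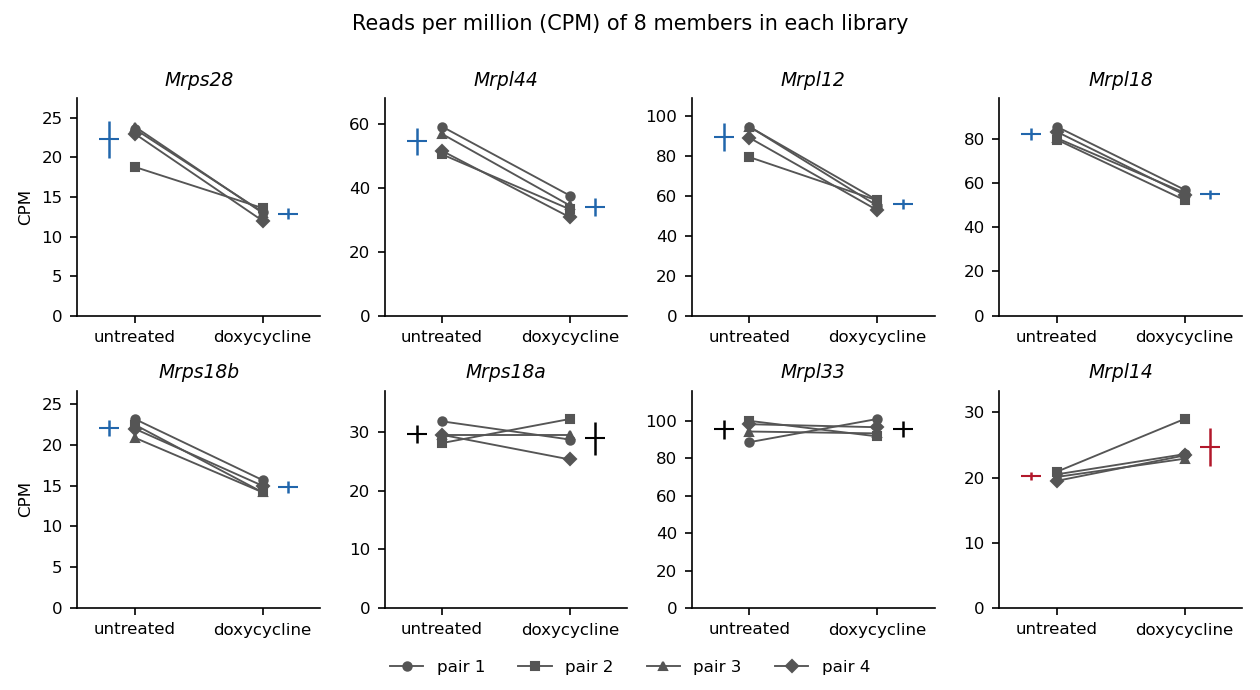
CPM (vertical axes, each from 0) of 8 members in the 4 untreated and 4 doxycycline libraries; lines join libraries with the same pair label, and the bars beside them are means with SD. The doxycycline values of Mrps28, Mrpl44, Mrpl12, Mrpl18 and Mrps18b lie below all their untreated values, those of Mrps18a and Mrpl33 overlap them, and those of Mrpl14 lie above (Mrpl14 did not pass with plain library totals).

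Among the large subunit proteins particular to mitochondria, Mrpl44 fell most. Its protein resembles ribonuclease III and is required for the large subunit to assemble. Mrpl44 (chromosome 1, 79776018 to 79781445, plus strand) had 59.2, 50.5, 56.9 and 51.6 CPM untreated and 37.6, 33.3, 34.5 and 30.8 CPM in doxycycline, with no overlap and a log2 fold change of −0.68 ± 0.07 (adjusted p = 3.6e-05). Mrps30 was 25.9, 26.1, 28.8 and 27.0 CPM untreated and 21.6, 21.6, 21.6 and 21.3 CPM in doxycycline (−0.32 ± 0.05, adjusted p = 0.00045), so its doxycycline values were almost the same in all 4 libraries. Mrpl41 had 26.1, 21.8, 24.3 and 26.4 CPM untreated and 23.9, 19.9, 20.6 and 20.3 CPM in doxycycline (−0.22 ± 0.08, adjusted p = 0.0424). It was lower in each pair although the groups overlapped, and it no longer passed without untreated replicate 1, 3 or 4, without doxycycline replicate 2, 3 or 4, or without pair 3 or 4 (−0.22 to −0.16, adjusted p 0.0732 to 0.191). On all libraries, limma did not call Mrpl41 with median-of-ratios factors (adjusted p = 0.0618), without a variance trend (0.0523) or with array weights (0.0531). With the pair label as a block it passed (adjusted p = 0.0157). Mrpl48, a protein of the central protuberance, had 34.1 ± 2.22 and 34.0 ± 2.76 CPM and a difference of −0.01 ± 0.07 (adjusted p = 0.949).

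In the small subunit, Mrps28 had the largest fall of all 75 members; its protein corresponds to a domain of bacterial ribosomal protein S1. Mrps28 (chromosome 3, 8802146 to 8923918, minus strand) had 23.6, 18.8, 23.9 and 23.0 CPM untreated and 13.1, 13.6, 13.0 and 12.0 CPM in doxycycline. Untreated replicate 2 was the lowest of its group and still above every doxycycline library, and the log2 fold change was −0.78 ± 0.09 (1.72-fold lower, adjusted p = 4e-05). Mrps5, which helps form the channel where mRNA enters, fell from 37.0 ± 2.07 to 25.7 ± 1.76 CPM (−0.53 ± 0.07), and Mrps10, in the head of the subunit, fell from 49.9 ± 4.15 to 34.8 ± 2.28 CPM (−0.52 ± 0.07). Mrps12, part of the decoding centre and the relative of the bacterial protein in which streptomycin resistance arises, had 26.0, 23.5, 27.0 and 24.6 CPM untreated and 22.0, 23.3, 17.9 and 20.2 CPM in doxycycline (−0.28 ± 0.09, adjusted p = 0.0169). Its groups came close without overlapping, and it did not pass without untreated replicate 3 (−0.25, adjusted p = 0.0501), pair 3 (−0.18, adjusted p = 0.0951) or pair 4 (−0.28, adjusted p = 0.059). Mrps15 (41.8 ± 2.18 and 41.5 ± 2.39 CPM) and Mrps21 (41.2 ± 1.43 and 42.5 ± 0.885 CPM) did not pass.

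Mrps35 and Mrps22, both particular to the mitochondrial small subunit, fell by smaller amounts. Mrps35 went from 24.5 ± 2.07 to 19.4 ± 0.387 CPM (−0.33 ± 0.07, adjusted p = 0.00194). Mrps22 went from 15.5 ± 1.25 to 12.8 ± 0.308 CPM (−0.27 ± 0.07, adjusted p = 0.00945), and it did not pass without pair 1 (−0.25, adjusted p = 0.0513) or pair 4 (−0.21, adjusted p = 0.0534).

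The mitochondrial ribosome holds 3 relatives of bacterial protein S18, and their transcripts gave different values. Mrps18b had 23.2, 22.5, 20.9 and 22.0 CPM untreated and 15.7, 14.2, 14.2 and 15.0 CPM in doxycycline (chromosome 17, 35910379 to 35916389, minus strand; −0.58 ± 0.06, adjusted p = 3e-05), with no overlap. Mrps18a had 31.8, 28.1, 29.4 and 29.5 CPM untreated and 28.7, 32.2, 29.4 and 25.3 CPM in doxycycline (−0.04 ± 0.08, adjusted p = 0.647), with full overlap. Mrps18c, the member that occupies the bacterial position, went from 31.8 ± 1.18 to 30.7 ± 2.71 CPM (−0.05 ± 0.07, adjusted p = 0.508). The log2 ratio of Mrps18b to Mrps18a differed by −0.54 and that of Mrps18b to Mrps18c by −0.53 between the groups. Each had an exact permutation p of 0.0286, and 0.0762 adjusted over the 8 ratios of both comparisons. The permutations did not use the pairs, and the genes were chosen after their values were seen, so these p-values are no independent support. An antisense transcript, Gm16279, covers 30.5% of the Mrps18b exons on the opposite strand, and no strand is stated for the counts, so reads of these transcripts cannot be told apart.

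Levels per kilobase of merged exons could be set for 74 members. That length joins the exons of all annotated transcripts and may exceed the expressed one. Levels are therefore only roughly comparable between members. In untreated cells they ran from 2.83 ± 0.24 CPM per kilobase for Mrps35 to 58.9 ± 1.96 for Mrpl18 (SD, n = 4). Mrpl12 (58.5 ± 4.68) and Mrps21 (55.7 ± 1.94) came next to Mrpl18, and the spreads of Mrpl18 and Mrpl12 overlapped. Mrpl47 (3.61 ± 0.153) and Mrps22 (3.87 ± 0.314) stood next to Mrps35, and their spreads overlapped each other. Across the 74 members the change after doxycycline had a Pearson correlation of 0.15 with the log2 level per kilobase and of −0.13 with exon length, as a description over genes of the same libraries.

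The members lie on 17 chromosomes, with 10 on chromosome 11 and 8 on chromosome 17, and 25 of them start head to head with another gene, their starts within 1000 bases. For 23 distinct arrangements of this kind the neighbour was measured, with Mrpl46 and Mrps11 as 1 arrangement. In 10 the member and its neighbour both fell, in 6 the member alone fell and its neighbour did not pass, and in 2 the member fell while the neighbour rose. In 3 the neighbour alone fell, and in 2 neither passed. By the same rule 33.8% of all genes fell and 31.3% rose, and falls made up 65.3% of the members. How often other genes start head to head was not counted. Mrpl46 and Mrps11, a large and a small subunit gene, lie head to head with each other on chromosome 7 (78775236 to 78783531, minus strand, and 78783119 to 78792989, plus strand). They fell by 0.36 ± 0.07 and 0.42 ± 0.08 on the log2 scale, and their log2 ratio was 0.19 ± 0.09 (SD) untreated and 0.26 ± 0.16 in doxycycline (exact permutation p = 0.543). In contrast, Mrpl2 fell by 0.27 ± 0.08 while its neighbour Klc4, a kinesin light chain gene, rose by 0.81 ± 0.06. Exons of 30 members overlap those of another gene, in 26 cases on the opposite strand; the overlap passes 30% of exon length for Mrpl19, Mrpl43, Mrps18b, Mrps25 and Mrps34. Mrpl43 shares 33.4% of its exon length with Twnk, the mitochondrial DNA helicase gene, on the opposite strand.

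Promoter sequences were available for 66 members, from RefSeq on GRCm38.p6, covering 250 bases before the transcript start and 50 after it. They were searched on both strands for the palindromic NRF1 site (its letters are the capitals printed for Mrpl32 below), CCGGAAG (an ETS site, as GABPA binds), CACGTG (the E-box of MYC) and AAGATGGC (the YY1 site); CCGGAAG and AAGATGGC can share the letters AAG. A gene with several annotated starts was counted once, as holding a motif if any of its windows did. The ETS letters were in 34.8% of the members with a promoter, 9.9% of all 27025 genes with one and 20.9% of the 8988 such genes in the doxycycline table. The YY1 letters were in 18.2%, 3.2% and 5.6%, the NRF1 letters in 4.5%, 1.1% and 2.5%, and the E-box in 7.6%, 8.1% and 11.9%, in the same order. Of the 49 members that fell, 43 had a promoter sequence, and 12 of these had the ETS letters and 9 the YY1 letters. Of the 24 that did not pass, 22 had a promoter sequence, and 11 and 3 of these did. A match describes the letters in the window and is not a measured binding site.

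The 30-base stretches below show all 3 members with the NRF1 letters and all 5 with the E-box, then ETS and YY1 letters in members with large falls or with differences near 0 (Mrps18b and Mrps18a side by side, and Mrps11, Mrps27 and Mrpl18). Capitals mark the letters of the motif named on each line, the gene's sense strand is printed 5′ to 3′, and ETS or YY1 letters on the other strand appear as CTTCCGG or GCCATCTT. The Mrps18c stretch also holds ETS letters, left in lower case.
Mrpl32 NRF1 (chr13:14613105-14613134, minus strand): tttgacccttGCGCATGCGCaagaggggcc
Mrpl39 NRF1 (chr16:84735350-84735379, minus strand): aaggagaggcGCGCATGCGCccccgcgtgg
Mrpl9 NRF1 (chr3:94443298-94443327, plus strand): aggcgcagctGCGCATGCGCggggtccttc
Mrpl2 E-box (chr17:46646078-46646107, plus strand): actgccgcccgtCACGTGacccgagcaacc
Mrpl20 E-box (chr4:155802833-155802862, plus strand): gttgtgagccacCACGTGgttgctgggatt
Mrpl36 E-box (chr13:73330954-73330983, plus strand): cacacgtcatccCACGTGaccttacgccat
Mrpl37 E-box (chr4:107067011-107067040, minus strand): agcaagtttcttCACGTGtggcacttcaga
Mrps18c E-box (chr5:100798584-100798613, plus strand): gcagccccgggtCACGTGacttccggcccg
Mrps18b ETS (chr17:35916391-35916420, minus strand): tgtcccgagcatgcgcagtcgctCTTCCGG
Mrps18a ETS (chr17:46110967-46110996, plus strand): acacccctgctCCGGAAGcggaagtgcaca
Mrpl18 ETS (chr17:12916312-12916341, minus strand): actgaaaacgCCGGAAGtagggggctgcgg
Mrps27 YY1 (chr13:99344789-99344818, plus strand): tggtgcgctccAAGATGGCggctcccatgg
Mrps11 YY1 (chr7:78783013-78783042, plus strand): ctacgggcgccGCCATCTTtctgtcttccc

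Of the 3 members with the NRF1 letters, Mrpl9 fell (−0.27 ± 0.06) and Mrpl32 and Mrpl39 did not pass (−0.16 ± 0.08 and −0.11 ± 0.07). Of the 5 with an E-box, Mrpl2, Mrpl20, Mrpl36 and Mrpl37 fell and Mrps18c did not pass. Falls made up 65.3% of all 75 members, so these counts do not set members with a motif apart. Mrpl20 did not pass in 8 fits that left out a library or a pair (−0.19 to −0.15, adjusted p 0.0726 to 0.168), nor Mrpl2 without pair 3 (−0.19, adjusted p = 0.0715) or pair 4 (−0.24, adjusted p = 0.0581). On all libraries, limma did not call Mrpl20 with median-of-ratios factors (adjusted p = 0.0578) or without a variance trend (0.0531). With the pair label as a block Mrpl20 passed (adjusted p = 0.0127). The ETS letters were found in Mrps18b and Mrpl18, which fell, and in Mrps18a, whose difference was −0.04. Mrpl48, with a difference of −0.01, held them in 1 of its 4 annotated start windows, one that lies inside the gene, and not in the window at the gene's outermost start.

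Mitoribosomal proteins that carry other symbols gave similar counts: 4 of 7 fell and 1 rose, with a median of −0.26. Of all genes, 33.8% fell and 31.3% rose. Gadd45gip1 fell from 34.9 ± 3.73 to 21.8 ± 2.15 CPM (SD, n = 4; −0.68 ± 0.09, adjusted p = 0.00016), and Ptcd3, at the mRNA entrance of the small subunit, from 57.3 ± 2.78 to 37.5 ± 2.13 CPM (−0.61 ± 0.06, adjusted p = 1.3e-05). Mrp63 fell by 0.38 ± 0.06. The gene that rose was Aurkaip1 (0.30 ± 0.07, adjusted p = 0.00593; 0.06 and adjusted p = 0.444 with plain library totals), which encodes a small subunit protein.

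Genes that build and serve the ribosome were counted by the same rule, by which 33.8% of all genes fell and 31.3% rose. Of 26 mitoribosome assembly factors, 13 fell, 1 rose and 12 did not pass (median −0.22). With the pair label as a block 14 fell, since the RNA methylation factor gene Nsun4 (−0.25, adjusted p = 0.0878) then passed (adjusted p = 0.0291). The GTPase genes Mtg1 and Noa1 fell from 24.4 ± 1.46 to 16.5 ± 0.993 CPM (−0.56 ± 0.07) and from 29.8 ± 0.985 to 20.7 ± 1.63 CPM (−0.53 ± 0.06), and the helicase gene Dhx30 fell by 0.27 ± 0.04; the 1 that rose was the helicase gene Ddx28 (0.36 ± 0.09, adjusted p = 0.00685), which did not pass with plain library totals (0.12, adjusted p = 0.292) or without pair 1 (0.29, adjusted p = 0.0534). Of 15 mitochondrial translation factors 10 fell and none rose (median −0.27), among them the elongation factor gene Tufm (67.9 ± 4.57 to 48.3 ± 1.65 CPM, −0.49 ± 0.06), the release factor gene Mtrf1l (−0.46 ± 0.07) and Guf1 (−0.27 ± 0.05). Of 12 genes of mitochondrial transcription and DNA maintenance 9 fell and 1 rose (median −0.30), the polymerase gene Polg (0.13 ± 0.05, adjusted p = 0.0403), which fell with plain library totals (−0.11, adjusted p = 0.0301) and did not pass without untreated replicate 2, 3 or 4, doxycycline replicate 1 or 4, or any 1 pair (0.09 to 0.14, adjusted p 0.0629 to 0.131). Twnk, listed as Peo1, fell from 17.9 ± 1.07 to 9.25 ± 1.1 CPM (−0.96 ± 0.10, adjusted p = 2e-05), Tfam, which packages mitochondrial DNA and starts its transcription, fell from 45 ± 0.865 to 32.0 ± 2.18 CPM (−0.49 ± 0.06), and Elac2, which cuts tRNA ends, by 0.45 ± 0.05. Of 15 genes of protein import and folding 12 fell and none rose (median −0.24), and 11 fell with the pair block, where Pmpca (−0.10, adjusted p = 0.0373), a subunit of the presequence protease, no longer passed (adjusted p = 0.0557). The chaperonin gene Hspd1 fell from 324 ± 18.7 to 173 ± 6.09 CPM (−0.91 ± 0.05, adjusted p = 7.7e-07), the chaperone gene Hspa9 by 0.56 ± 0.04, and the import pore gene Tomm40 by 0.64 ± 0.04.

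Of 8 measured nuclear regulators of mitochondrial genes, 7 fell and 1 rose (median −0.46). Myc, a transcription factor that drives growth and ribosome production, fell from 139 ± 6.39 to 66.7 ± 9.33 CPM (SD, n = 4), a log2 fold change of −1.07 ± 0.10 (adjusted p = 9.6e-06). Pprc1, a coactivator of the PGC-1 family, fell by 0.58 ± 0.04, and Gabpb1, a partner of GABPA, by 0.57 ± 0.06. The regulator that rose was the nuclear receptor gene Esrra (0.26 ± 0.06, adjusted p = 0.00593; 0.02 and adjusted p = 0.81 with plain library totals).

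The transcripts that the ribosome translates moved the other way on the authors' scale. Of 13 protein genes encoded in mitochondrial DNA, 12 rose and none fell, with a median of 0.52. With quantile normalization of the same values 4 rose, 3 fell and the median was −0.06, and with plain library totals 9 rose and 1 fell. On the authors' scale mt-Nd3 rose from 166 ± 8.82 to 326 ± 30.1 CPM (0.97 ± 0.07), and it was also higher by 0.86 with quantile normalization. Mt-Co2 and mt-Co3 rose by 0.69 ± 0.09 and 0.72 ± 0.08 but were lower, at −0.41 and −0.22, with quantile normalization. As shares of plain read totals, these 13 genes took 2.37% to 2.71% untreated and 2.97% to 3.32% in doxycycline, and the groups did not overlap. The ribosomal RNAs of the mitochondrion, mt-Rnr1 and mt-Rnr2, did not pass (0.04 ± 0.25 and 0.10 ± 0.24, adjusted p = 0.896 and 0.731). Each was lower in 3 of the 4 pairs and higher in 1, and the doxycycline libraries spread widely. For mt-Rnr1 they ran from 89.8 to 227 CPM (108 to 128 untreated), and for mt-Rnr2 from 242 to 584 CPM (260 to 339 untreated). These values therefore do not show that the ribosomal RNAs stayed level.

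**Figure D3:**
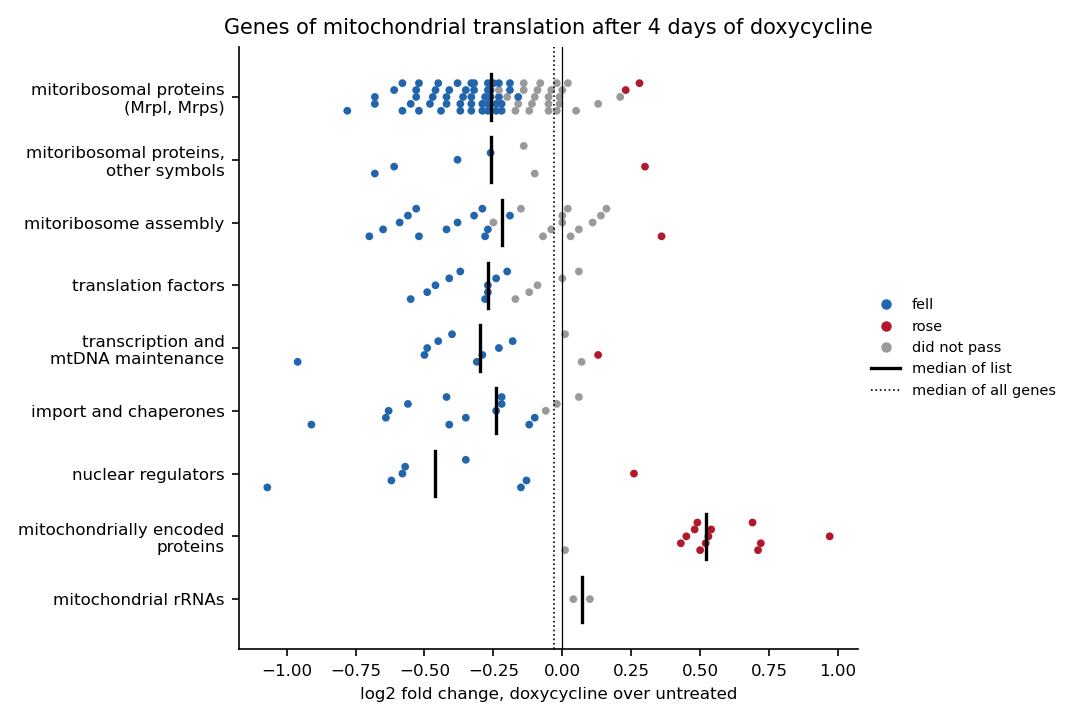
Log2 fold change (doxycycline over untreated, horizontal axis) of each gene in 9 lists of genes of mitochondrial translation, 1 point per gene, with the median of each list (bar) and of all genes (dotted line, −0.03). The medians of the 7 lists of nuclear genes lie between −0.46 and −0.22 and that of the mitochondrially encoded proteins at 0.52, which with quantile normalization was −0.06.

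Other features of the libraries moved with doxycycline. The summed level of the 8 myeloid markers was 2190 to 2550 CPM untreated and 4530 to 5240 CPM in doxycycline; 5 of them rose, among them Csf1r (2.06 ± 0.14) and Cd14 (1.82 ± 0.17), and Elane (−1.97 ± 0.19) and Cebpa (−0.40 ± 0.06) fell. Itgam made up most of the rise in the sum, at 1000 CPM untreated and 2840 CPM in doxycycline on average. Mpo went from 252 ± 191 to 126 ± 119 CPM (SD, n = 4), was lower in all 4 pairs and did not pass (−1.20 ± 0.63, adjusted p = 0.119), but fell with the pair block (adjusted p = 0.000375), which made 3 of 8 myeloid markers lower. The B cell marker measured, Cd79b (−0.35, adjusted p = 0.421), also fell with the block only (adjusted p = 0.00529). The megakaryocyte markers (3 of 4 measured) summed to 22.2 to 47.4 CPM untreated and 6.1 to 13.2 CPM in doxycycline. Itga2b carried most of this sum (30 ± 10.1 to 6.51 ± 2.8 CPM) and fell, as did Gp9, whereas Pf4 rose from 1.5 ± 0.481 to 2.82 ± 0.643 CPM (0.94 ± 0.28, adjusted p = 0.0135). Pdgfrb was the stromal marker measured and went from 44.2 to 66.0 CPM to 12.6 to 21.0 CPM, and none of 7 erythroid markers was in this table. The authors' scaling factors were 1.07 to 1.1 untreated and 0.89 to 0.95 in doxycycline. With plain library totals the median of all genes was −0.27 and that of the members −0.50, with 71 members lower and none higher. Of all genes, 6912 then fell and 2702 rose. Relative to all genes, the members' median was −0.23 on either scale. This had to be so, since such scaling shifts all genes alike. With quantile normalization, which is no such shift, the members' median relative to all genes was −0.2. The part of these features in the members' falls was not tested, and in bulk RNA fewer cells of a type and less RNA per cell cannot be told apart.

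With the pair label as a block, limma called 51 members lower and 3 higher. In either direction this was 72% of the members, close to 69.6% of all genes. Lower calls made up 68% of the members, against 4828 of all 13406 genes. The members gained were Mrpl52 (0.21, adjusted p = 0.0229), Mrps33 (−0.14, adjusted p = 0.038) and Mrps36 (−0.17, adjusted p = 0.0388), and no call was lost. Of the 49 members that fell, 41 also fell in each of the 21 other fits. Pseudogenes of 3 members were in the table, so that the counting could have split reads: Mrpl23-ps1 had 94 to 168 reads per library and fell (−0.35, adjusted p = 0.00595), and Mrpl48-ps and Mrps36-ps1 did not pass.

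The other experiment asked what excess Id2 does in the same leukaemia cells with MLL-AF9 left on. No member passed the test between Id2-GFP and control-GFP libraries, where limma called 2 of 14563 genes (0.0137%). At an unadjusted p under 0.05 the count was 0 members, against 2.45% of all genes, and with the replicate number as a block it was 0 members of 35 genes called (0.24%). The median member was at −0.22 and 73 of 75 lay below 0, against −0.03 and 55.3% of all genes, but 11 members were lower in all 3 pairs, against 14.6% of all genes, and no member had Id2-GFP values that were all below the control-GFP values, against 3.77% of all genes.

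These values rest on control-GFP replicate 3. The members' median stood 0.48 above the mean of the control-GFP group in that library, 0.10 below it in replicate 1 and 0.41 below it in replicate 2, whereas the Id2-GFP libraries were 0.08, 0.33 and 0.24 below it. In pairs 1 and 2 the median member differed by 0.01 and 0.07 on the log2 scale, and in pair 3 it was lower by 0.78 with all 75 members lower. Without control-GFP replicate 3 the median was 0.05 with 22 members below 0, and without pair 3 it was 0.05 with 18 below 0. Without control-GFP replicate 2 it was −0.42, with 3 members at an unadjusted p under 0.05 and none past the adjusted threshold.

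**Figure D4:**
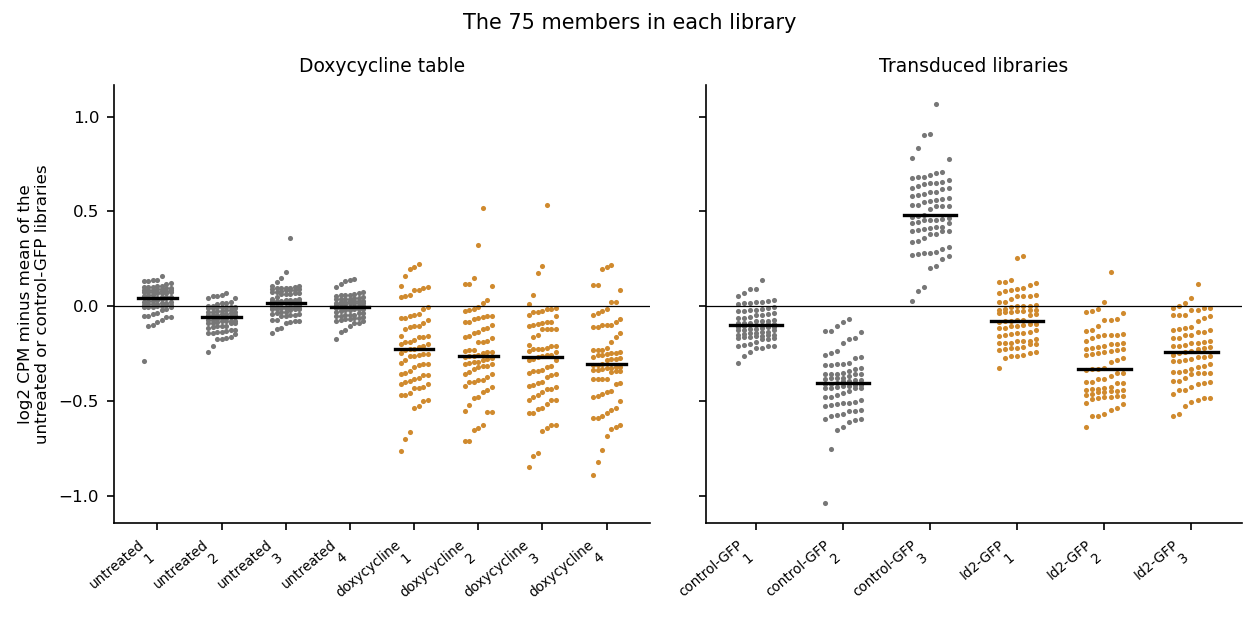
Log2 CPM of each of the 75 members minus its mean over the untreated libraries (left) or the control-GFP libraries (right), 1 point per member in each library, with the median as a bar. The doxycycline medians lie between −0.30 and −0.23 with the untreated ones near 0, while the 3 control-GFP libraries spread from −0.41 to 0.48 and enclose all Id2-GFP libraries.

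Members' values followed that library one by one. Mrpl12 had 72.6, 55.0 and 124.0 CPM in control-GFP replicates 1 to 3 and 82.2, 64.5 and 67.8 CPM in the Id2-GFP replicates, a difference of −0.15 with a 95% interval of −0.84 to 0.54. Mrps28 had 25.1, 17.5 and 38.6 CPM and 28.3, 20.1 and 17.2 CPM (−0.26, interval −1.02 to 0.50), and Mrpl14 had 20.9, 16.4 and 38.1 CPM and 18.8, 21.2 and 18.9 CPM (−0.26, interval −0.99 to 0.46). In each of these genes the control-GFP range enclosed or nearly enclosed the Id2-GFP values, and the highest value was that of control-GFP replicate 3. The Id2-GFP values of Mrpl33 were close together (96.6, 99.4 and 97.4 CPM), within control-GFP values of 87.6, 73.9 and 145.0 CPM. Mrps5 had the narrowest control-GFP spread among these, at 33.1, 31.8 and 35.3 CPM against 36.5, 29.1 and 27.4 CPM (−0.12, interval −0.54 to 0.30). Mrpl41 had the lowest difference of all members, −0.40, at 23.4, 19.5 and 33.7 CPM against 21.7, 17.9 and 17.3 CPM, and Mrps18b, lower in all 3 pairs, had 20.9, 15.3 and 23.5 CPM against 20.1, 13.5 and 13.8 CPM (−0.33, interval −0.93 to 0.26). Neither passed (adjusted p = 0.998 for both). For all 75 members, the 49 that fell after doxycycline among them, the 95% interval here reached below the member's difference after doxycycline. Where the Id2 difference itself was the lower one, as for Mrpl14 and Mrpl4, this holds for an interval of any width. The intervals include the spread from control-GFP replicate 3.

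Other measures set control-GFP replicate 3 apart as well. The 3 measured erythroid markers summed to 36.2 CPM there and to 0.864 to 5.45 CPM in the other transduced libraries, and its authors' scaling factor was 0.913 against 1.005 to 1.026. Members took 0.369% of its reads, against 0.222% to 0.280% in the other transduced libraries. The part of these features in the members' values was not tested.

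No gene of the other lists passed in the Id2 comparison without the block. With the replicate block the myeloid marker Mpo passed, at 132 ± 62.1 CPM in control-GFP and 47.0 ± 31.7 CPM in Id2-GFP libraries (−1.74, lower in 3 of 3 pairs, adjusted p = 0.0359, against 0.998 without the block). The assembly factors had a median of −0.10, the translation factors of −0.08 and the import genes of −0.15, and the 13 mitochondrially encoded proteins had a median of 0.32, which was −0.03 without Id2-GFP replicate 2, where these genes took 7.09% of the reads against 3.15% to 4.35% elsewhere. Myc had 161 ± 94.7 CPM in control-GFP and 147 ± 56.5 CPM in Id2-GFP libraries (SD, n = 3; −0.04 ± 0.42), and Tfam 50.3 ± 17.5 and 41.1 ± 5.0 CPM (−0.24 ± 0.26). Across the 75 members the differences after doxycycline and with Id2 had a Pearson correlation of 0.23 and a Spearman correlation of 0.26, as a description over genes; the comparisons share no libraries.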

How the data were processed

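The 14 libraries were made with an Illumina TruSeq V2 kit from total RNA, per the labels' protocols. CASAVA 1.8.2, TopHat2, HTSeq, limma and the build mm10 are listed, without their roles, in the submitters' processing notes. For each experiment the authors deposited log2 CPM, an offset of 0.5 reads having been added to whole reads before scaling, as the values show (all were whole within 0.01 read). The doxycycline table had 13419 entries, 13 of them repeats.

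Each table was fitted alone with limma 3.58.1 in R 4.3.3 on the deposited log2 values (eBayes with a trend, two-sided, Benjamini-Hochberg over all genes of the table, adjusted p under 0.05). The fit was also tried on simulated counts, which had no pairs and no deviating library. Fold changes are on this scale, whose offset understates low genes. Doxycycline (n = 4) was compared with untreated (n = 4), and Id2-GFP (n = 3) with control-GFP (n = 3). Titles give the pair labels and numbers; deviations from group means of same-pair libraries correlated at 0.454 to 0.552 with or without doxycycline and at 0.472 to 0.581 after transduction, and the block is given where it changes a call. CPM were obtained from the log2 values, and lengths and positions from GENCODE M21 on GRCm38, in which the identifier of Mrpl33 was not matched. Tables and plots were made in Python 3.11.15 with matplotlib 3.10.9.

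The members and lists were chosen with earlier results of these data known. Members named are the 10 largest falls, the rises, the 3 smallest differences, the 3 with most and fewest reads per length, and Mrpl12, Mrps12, Mrps18a, Mrps30 and Mrpl41; of other lists, up to 3 genes with the smallest p, and Myc and Tfam. Other genes named, the 8 ratios and the members grouped by stalk or S18 family were chosen after their values were seen. Alternatives were other scalings, another offset, a floor on low levels, other variance models, the block, and leaving out each library or pair.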

Additional observations from a re-analysis of the deposited data

Results flagged for a closer look

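In groups of 4 libraries, 5 of 44 groups of the 22 named members had 1 library far from the others, as measured by its gap to the nearest over the group's range; chance alone flags about 1 in 20 groups. Mrpl48 was highest in untreated replicate 1, at 37.4 CPM, with the nearest library at 33.4 CPM. Doxycycline replicate 2 was highest for both genes that rose on the authors' scale, at 29.0 CPM for Mrpl14 (nearest 23.6) and 57.0 CPM for Mrpl4 (nearest 52.8). Mrpl41 was highest in doxycycline replicate 1, at 23.9 CPM (nearest 20.6). Mrps30 was lowest in doxycycline replicate 4, at 21.3 CPM, but the nearest stood at 21.6 CPM, so the gap was small.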

How the results depend on the processing

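The count of members that fell after doxycycline was 44 to 71 over the 21 other fits (main 49), and the members' median was −0.28 to −0.24 except with quantile normalization (−0.29) and plain library totals (−0.50). With the replicate block, 51 members fell and 3 rose, and in the Id2 comparison 0 passed; it changed no other member's call than the 3 gained. Plain library totals left 0 members higher, and gave Mrpl33 −0.24, Mrpl4 −0.01, Mrps21 −0.19, mt-Rnr1 −0.20 and mt-Rnr2 −0.14. Of the nuclear genes in the other mitochondrial lists that rose in the main fit, Aurkaip1, Ddx28 and Esrra then did not pass and Polg fell. Of the mitochondrially encoded proteins, 9 were then higher and 1 lower. Quantile normalization gave 4 mitochondrially encoded proteins higher, and Mrpl33 −0.09, mt-Co2 −0.41, mt-Co3 −0.22, mt-Rnr1 −0.08 and mt-Rnr2 −0.05. Median-of-ratios factors put Mrpl48 at 0.02 and Mrps15 at 0.01, and array weights Mrpl48 at 0.01 and mt-Rnr1 at −0.02. Leaving out a library or pair moved doxycycline differences across 0, among the genes named by rule, only for some that had not passed: Mrpl33 (−0.06 to 0.05), Mrpl48 (−0.06 to 0.04), Mrps15 (−0.05 to 0.02), Mrps18a (−0.12 to 0.02), mt-Rnr1 (−0.26 to 0.19) and mt-Rnr2 (−0.18 to 0.24).
In the Id2 comparison no member passed in any of the 18 other fits. Leaving out a library or pair gave Mrpl12 −0.41 to 0.20, Mrpl14 −0.58 to 0.11, Mrpl15 −0.43 to 0.06, Mrpl33 −0.22 to 0.28, Mrpl36 −0.46 to 0.04, Mrpl4 −0.14 to 0.19, Mrpl48 −0.10 to 0.10, Mrps5 −0.25 to 0.01, Mrps10 −0.27 to 0.13, Mrps12 −0.43 to 0.23, Mrps15 −0.33 to 0.15, Mrps18a −0.41 to 0.13, Mrps21 −0.47 to 0.21, Mrps22 −0.45 to 0.07, Mrps28 −0.54 to 0.19, Mrps30 −0.42 to 0.11, Mrps35 −0.30 to 0.11, Myc −0.36 to 0.41 and Tfam −0.44 to 0.03. Array weights, which count a deviating library less, gave a median of 0.03, with Mrpl12 at 0.16, Mrpl14 0.04, Mrpl15 0.02, Mrpl33 0.24, Mrpl36 0.02, Mrpl4 0.12, Mrpl48 0.11, Mrps10 0.18, Mrps12 0.17, Mrps15 0.10, Mrps18a 0.03, Mrps21 0.11, Mrps22 0.03, Mrps28 0.06, Mrps30 0.08, Mrps35 0.10, Myc 0.19 and Tfam 0.01. Mrpl33, Mrpl4 and Mrpl48 were at 0.05, 0.03 and 0.05 with library totals, at 0.03, 0.01 and 0.03 with TMM and with median-of-ratios factors, and at 0.05, 0.02 and 0.02 with quantile normalization, and Myc at 0.02 with library totals and with quantile normalization. The causes were not tested. The planned count models, edgeR and DESeq2 on recovered reads, were not run. Without stated strand or separate animals, overlapping genes and technical replicates stay unresolved, and with 3 libraries a group the Id2 comparison cannot show small differences.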
